A study of Homo sapiens with 6 samples.

Results

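The genes described here are 38 members of the machinery that loads amino acids onto tRNA: 19 genes of cytosolic aminoacyl-tRNA synthetases, 16 genes of mitochondrial synthetases, and 3 genes (AIMP1, AIMP2 and EEF1E1) of proteins that hold several cytosolic enzymes together. They were chosen by gene symbol and function, with no threshold on their values but with earlier results of these data known, and each symbol matched 1 row of a deposited table of 60605 genes. RNA was sequenced from Huh-7, a human hepatoma cell line, and all 6 libraries came from cells made lipid-rich with oleic acid (100 µM, 24 h) and then starved. The control group received the vehicle DMSO (0 µM pectolinarigenin, 3 libraries) and the treated group received the plant flavone pectolinarigenin (100 µM, 24 h, 3 libraries), so the comparison is of the flavone in lipid-loaded cells of 1 line at 1 dose and 1 time. The labels do not say that separate cultures gave the 3 libraries of each group, so the p-values reflect library-to-library spread alone, and that spread could be technical.

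An aminoacyl-tRNA synthetase joins an amino acid to the tRNAs that read its codons, and the charged tRNA then carries it to the ribosome. Cytosolic and mitochondrial translation use separate enzymes for most amino acids. The mitochondrial enzymes are encoded in the nucleus, usually by genes whose symbols end in 2. GARS1 and KARS1 supply both compartments from 1 gene, and mitochondria make glutaminyl-tRNA by an indirect route. The enzymes fall into classes I and II, which differ in the fold of the catalytic domain, and several cytosolic enzymes sit with AIMP1, AIMP2 and EEF1E1 in the multi-tRNA synthetase complex. Many cytosolic synthetase genes are known targets of ATF4, a transcription factor whose translation rises in the integrated stress response, of which uncharged tRNA, sensed by the kinase GCN2, is a trigger.

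Most cytosolic synthetase transcripts were higher with pectolinarigenin, and the mitochondrial ones moved both ways, with log2 fold changes from -0.33 (EARS2) to 0.29 (FARS2) apart from MARS2 (0.65). Of the 19 cytosolic genes 13 rose (68.4%), 0 fell and 6 did not pass the test, with a median log2 fold change of 0.41. Of the 16 mitochondrial genes 15 were expressed enough to be tested (a mean of at least 1 FPKM, a read count scaled to gene length and library depth). Of these 4 rose (26.7%), 6 fell (40.0%) and 5 did not pass, with a median of -0.13. AIMP2 and EEF1E1 rose and AIMP1 did not pass. The test was edgeR's quasi-likelihood test with Benjamini-Hochberg adjustment over all 12829 genes tested and a threshold of 0.05. Over those genes 25.3% rose, 25.3% fell, and the median log2 fold change was 0.0007. The share of cytosolic genes that rose was thus above the share of all genes that rose, and that of the mitochondrial genes was close to it. The share of mitochondrial genes that fell was above the share of all genes that fell, and that of the cytosolic genes was below it. Of the 6 mitochondrial falls 2 (AARS2 and EARS2) passed in every alternative processing described below. The mitochondrial shares hold for the main test alone. The number that fell was 4 of 15 in DESeq2, in limma and without TMM factors, and 2 of 16 without an expression filter. The number that rose was 1 of 15 in DESeq2. No tested member reached a 2-fold change. The 37 tested members had 103 to 10688 counts per library.

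The cells had the markers of the labelled line. The 10 hepatocyte markers ranged from 30.6 FPKM (HNF4A) to 5470 FPKM (ALB) on average in the control group. With treatment 9 of them fell, where 25.3% of all genes tested fell. Of these falls, TTR passed in only 5 of 15 alternatives and APOB, with overlapping groups, in 4 of 15. The others passed in every alternative. Their summed level was 12680 to 12900 FPKM in the control and 9137 to 9943 FPKM in the treated libraries. Of 8 markers of other cells, 6 had a mean under 1 FPKM, with the leukocyte marker PTPRC at 0.01 FPKM or less, and LYZ and PECAM1 moved in opposite directions. LYZ rose from 39.6 to 64.4 FPKM on average, and PECAM1 fell from 2.47 to 1.22 FPKM. The summed level of these 8 was 42.24 to 42.67 FPKM against 54.08 to 77.92 FPKM, mostly from LYZ. The part of these shifts in the results on synthetases was not tested. Total counts were 15140022 to 20311261 per library, and treated library 3 lay apart from treated libraries 1 and 2 on the second principal component, which held 9.64% of the variance.

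**Figure D1:**
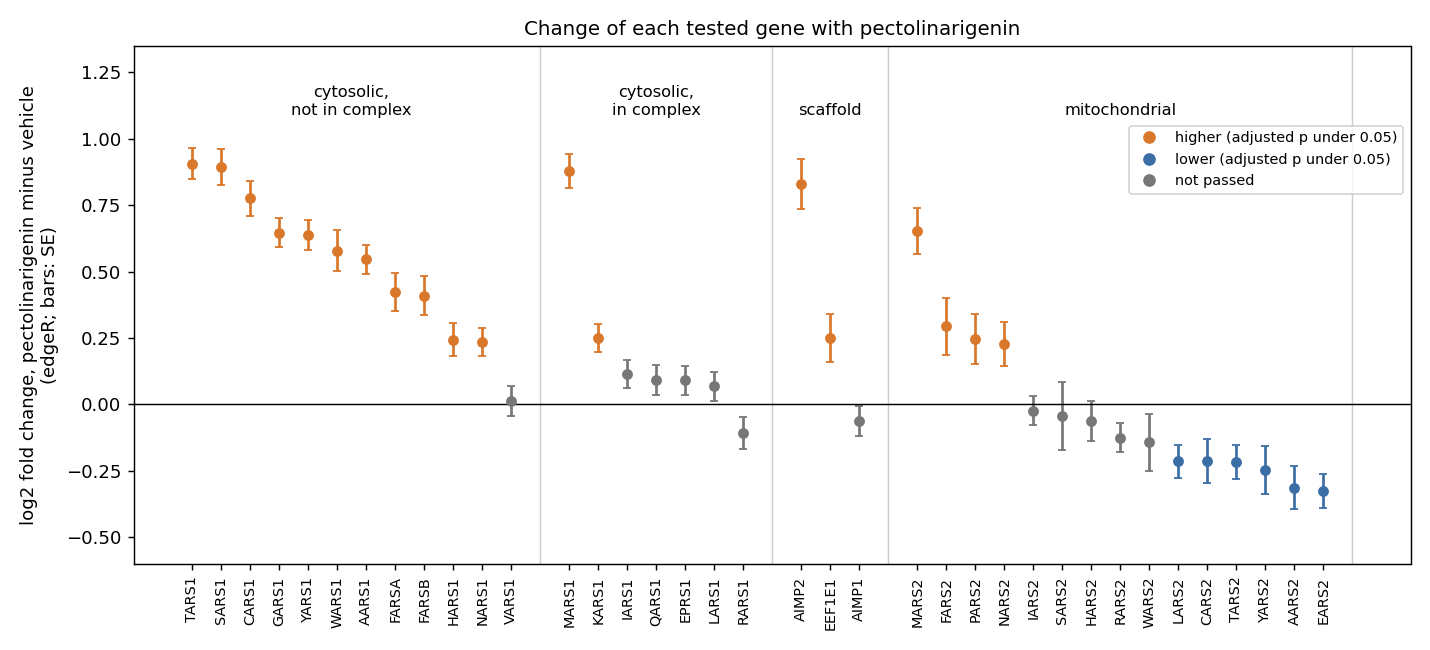
Log2 fold change of each of the 37 tested genes (vertical axis, pectolinarigenin minus vehicle, edgeR; bars are SE, 3 libraries per group), grouped by compartment and by membership of the multi-tRNA synthetase complex. Orange points rose and blue points fell at an adjusted p under 0.05, and grey points did not pass. Of 12 cytosolic genes outside the complex 11 are orange, against 2 of 7 in it, where 25.3% of all genes tested rose.

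Promoter sequences were examined because most cytosolic genes rose (13 of 19, with 6 that did not pass). A further reason was that ATF4 pairs with C/EBP proteins on a known composite element, CARE, with the core TGATGNAA. RefSeq promoters (GRCh38.p14, 250 bases before to 50 bases after each start) were on hand for 33 of the 38 members. The core, on either strand, lay in the window of 7 of 16 cytosolic genes, 1 of 14 mitochondrial genes and 0 of 3 scaffold genes. Over all RefSeq genes 4.46% held it in at least 1 window, and over all windows 3.62%. These windows show the 8 members with a match, 30 bases each along the strand of the gene, with the match in capitals. They are shown so that the elements can be compared by sequence and by place.
TARS1: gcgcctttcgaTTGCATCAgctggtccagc
MARS1: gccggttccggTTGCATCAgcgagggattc
CARS1: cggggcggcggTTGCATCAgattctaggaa
IARS1: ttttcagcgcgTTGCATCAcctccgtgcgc
AARS1: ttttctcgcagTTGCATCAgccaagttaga
GARS1: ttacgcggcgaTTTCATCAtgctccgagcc
NARS1: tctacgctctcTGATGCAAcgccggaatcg
YARS2: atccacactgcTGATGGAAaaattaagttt

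The windows lie at chr5:33440956-33440985 on the plus strand (TARS1), chr12:57488053-57488082 on the plus strand (MARS1), chr11:3057407-3057436 on the minus strand (CARS1), chr9:92293692-92293721 on the minus strand (IARS1), chr16:70289675-70289704 on the minus strand (AARS1), chr7:30594834-30594863 on the plus strand (GARS1), chr18:57621804-57621833 on the minus strand (NARS1) and chr12:32756076-32756105 on the minus strand (YARS2). In TARS1, MARS1, CARS1, IARS1 and AARS1 the same 8 letters, TTGCATCA, stand in the direction of the gene, and NARS1 has their reverse complement. The match began 4 bases before the start in MARS1, 2 before it in CARS1, 13 before it in IARS1 and 33 before it in GARS1. It lay inside the first transcribed bases in TARS1 (position 3, counted from 1 at the start) and NARS1 (position 15), and farther upstream in AARS1 (187 bases) and YARS2 (197 bases). Of the 7 cytosolic genes with the core 6 rose and IARS1 did not pass. Of the 9 cytosolic genes with a promoter entry and no match 6 also rose, among them SARS1. YARS2 fell. A match describes the letters in this window; binding was not measured. A palindromic E-box, CACGTG, was, on either strand, in the windows of 1 cytosolic, 3 mitochondrial and 1 scaffold gene (8.77% of all genes). These were IARS1, which did not pass, CARS2 and EARS2, which fell, and MARS2 and AIMP2, which rose. The cyclic AMP response element TGACGTCA was in that of AIMP2 alone among the 33 (2.25% of all genes). IARS1 was the only member with both an E-box and a CARE core, and there the E-box began 186 bases before the start, apart from the core. The E-box of MARS2 (chr2:197705346-197705375, plus strand) and the cyclic AMP element of AIMP2 (chr7:6009192-6009221, plus strand) are shown because these genes had the largest rises of their groups and no CARE core in the window.
MARS2: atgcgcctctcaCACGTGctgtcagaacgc
AIMP2: ggtcgacttcgTGACGTCAaagagcctggg

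**Figure D2:**
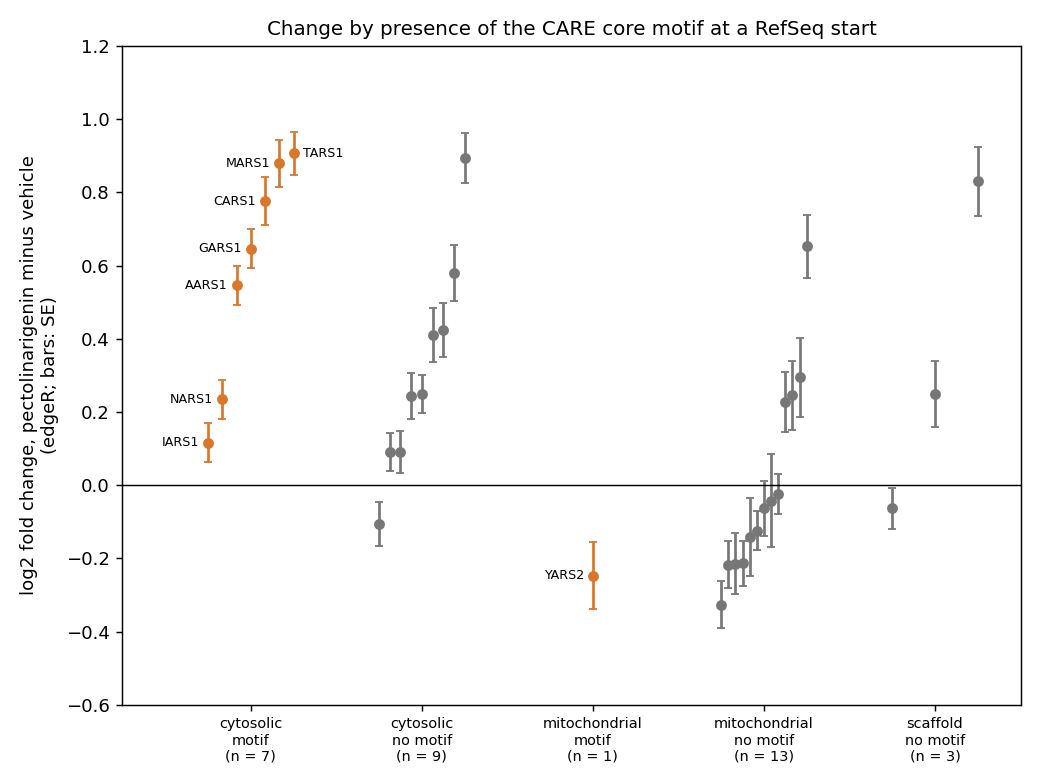
Log2 fold change (vertical axis, edgeR; bars are SE) of the 33 members with a RefSeq promoter entry, split by compartment and by whether a CARE core was found in a window around a start. Genes with a match are orange and named; the cytosolic genes with and without it overlap in range, and SARS1 is the highest gene without it.

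The largest rises were in the enzymes for threonine, serine and methionine. TARS1 (ENSG00000113407, chromosome 5, 33440696 to 33469539, GRCh38), the threonyl-tRNA synthetase, had 27.63, 25.89 and 27.45 FPKM in control libraries 1 to 3 and 51.17, 50.40 and 54.14 FPKM in treated libraries 1 to 3. Every treated library was far above every control library. This gave a log2 fold change of 0.91 (SE 0.0579, 1.87-fold; edgeR adjusted p = 1.86e-08). SARS1 (ENSG00000031698, chromosome 1, 109213918 to 109238169), which charges serine tRNAs and also the selenocysteine tRNA, had 13.93, 13.75 and 14.53 FPKM in the control and 24.44, 29.24 and 26.75 FPKM in the treated libraries. The treated values were more scattered than the control values but did not reach them, and the log2 fold change was 0.89 (SE 0.0679; edgeR adjusted p = 1.14e-07). MARS1 (ENSG00000166986, chromosome 12, 57475445 to 57517569), which also charges the initiator tRNA, had 13.35, 15.23 and 14.05 FPKM against 26.58, 25.58 and 28.32 FPKM. Its log2 fold change was 0.88 (SE 0.0648; edgeR adjusted p = 8.84e-08), the only one of its size among the enzymes of the complex.

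A second tier of cytosolic genes rose by 1.46-fold to 1.71-fold. CARS1, the cysteinyl-tRNA synthetase, had 3.61, 3.87 and 3.78 FPKM in the control and 6.22, 6.68 and 6.86 FPKM in the treated libraries (log2 fold change 0.78, SE 0.0662). GARS1, the glycyl enzyme of both compartments, had 6.38, 6.12 and 6.28 FPKM against 9.84, 10.36 and 9.96 FPKM (0.65, SE 0.0537). YARS1, the tyrosyl enzyme, had 13.08, 13.32 and 13.15 FPKM against 19.97, 21.86 and 21.33 FPKM (0.64, SE 0.0559). In these 3 genes the spread within a group was small beside the step between groups. WARS1, the tryptophanyl enzyme, which is also known as an interferon-induced gene, had 5.07, 5.20 and 5.40 FPKM against 8.35, 7.20 and 8.45 FPKM (0.58, SE 0.0764). AARS1, the alanyl enzyme, had 33.28, 35.94 and 34.37 FPKM against 51.56, 52.39 and 51.35 FPKM (0.55, SE 0.0538). Their edgeR adjusted p-values ranged from 2.64e-07 (GARS1) to 2.01e-05 (WARS1), and none of the 5 had overlapping groups.

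The genes of phenylalanyl-tRNA synthetase, which is built from alpha and beta subunits, rose to a like extent. FARSA (alpha) had 21.91, 24.21 and 22.79 FPKM in the control and 31.58, 28.79 and 34.37 FPKM in the treated libraries, a log2 fold change of 0.42 (SE 0.0728). FARSB (beta) had 6.01, 5.65 and 5.20 FPKM against 7.56, 7.35 and 8.08 FPKM, a log2 fold change of 0.41 (SE 0.0739). The subunits differed by less than the SE of either. Smaller rises were found in KARS1, the lysyl enzyme of both compartments (29.91, 30.01 and 31.14 FPKM against 37.39, 36.34 and 37.32 FPKM; log2 fold change 0.25, SE 0.0530), HARS1, the histidyl enzyme (0.24, SE 0.0633), and NARS1, the asparaginyl enzyme (0.23, SE 0.0531). In these 3 the rise was 17.6% to 18.8%, with edgeR adjusted p-values from 0.00118 to 0.00487. HARS1 and HARS2 are neighbours that start head to head on chromosome 5, and 8.4% of the exon bases of HARS1 are shared with other genes.

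The 6 cytosolic genes that did not pass were EPRS1, IARS1, LARS1, QARS1, RARS1 and VARS1, and all but VARS1 belong to the multi-tRNA synthetase complex. EPRS1, a fused enzyme for glutamate and proline, had 67.70, 66.27 and 65.39 FPKM in the control and 74.63, 73.76 and 69.59 FPKM in the treated libraries. Its groups did not overlap, but its log2 fold change was only 0.09 (95% normal interval from the SE, -0.01 to 0.19; edgeR adjusted p = 0.171). IARS1, the isoleucyl enzyme, had 20.22, 19.92 and 19.69 FPKM against 22.71, 21.58 and 22.25 FPKM, a log2 fold change of 0.12 (interval 0.01 to 0.22; edgeR adjusted p = 0.0828, unadjusted p = 0.0459). LARS1, the leucyl enzyme and a leucine sensor of mTORC1 signalling, had an interval of -0.04 to 0.17, and QARS1, the glutaminyl enzyme, one of -0.02 to 0.20. These intervals leave room for small rises and lie below the values of TARS1, SARS1 and MARS1. RARS1, the arginyl enzyme, was the cytosolic gene with a negative value: it had 34.55, 32.98 and 33.27 FPKM against 30.22, 32.02 and 33.77 FPKM, with overlapping groups (log2 fold change -0.11, interval -0.22 to 0.01). Without treated library 3, its highest treated value, RARS1 passed as lower (log2 fold change -0.155, edgeR adjusted p = 0.0225). Without treated library 1, its lowest, the log2 fold change was -0.065, and it did not pass. VARS1, the valyl enzyme, had 13.52, 13.89 and 13.87 FPKM against 14.89, 13.64 and 14.23 FPKM (interval -0.10 to 0.12).

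By position in the cell's machinery, 2 of 7 enzyme genes of the complex rose (MARS1 and KARS1, median log2 fold change 0.09). That share, 28.6%, was close to the 25.3% of all genes tested that rose. Outside the complex 11 of 12 genes rose (91.7%, median 0.56), with FARSA and FARSB encoding subunits of 1 enzyme. By class, 9 of 9 class II genes rose and 4 of 9 class I genes did (CARS1, MARS1, WARS1 and YARS1), with EPRS1 holding a domain of each class. The groupings are not independent, since 5 of the 7 enzymes in the complex are class I. Within class I, 1 of 5 rose in the complex and 3 of 4 outside it. In class II, 8 of 8 rose outside it, and the only class II enzyme within it, KARS1, rose too. These are counts of few genes, and no test was made of a difference between the groupings. In limma on log2(FPKM + 1), which applies no TMM factors, 4 of the 7 genes of the complex rose, EPRS1 and IARS1 being the additional genes.

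**Figure D3:**
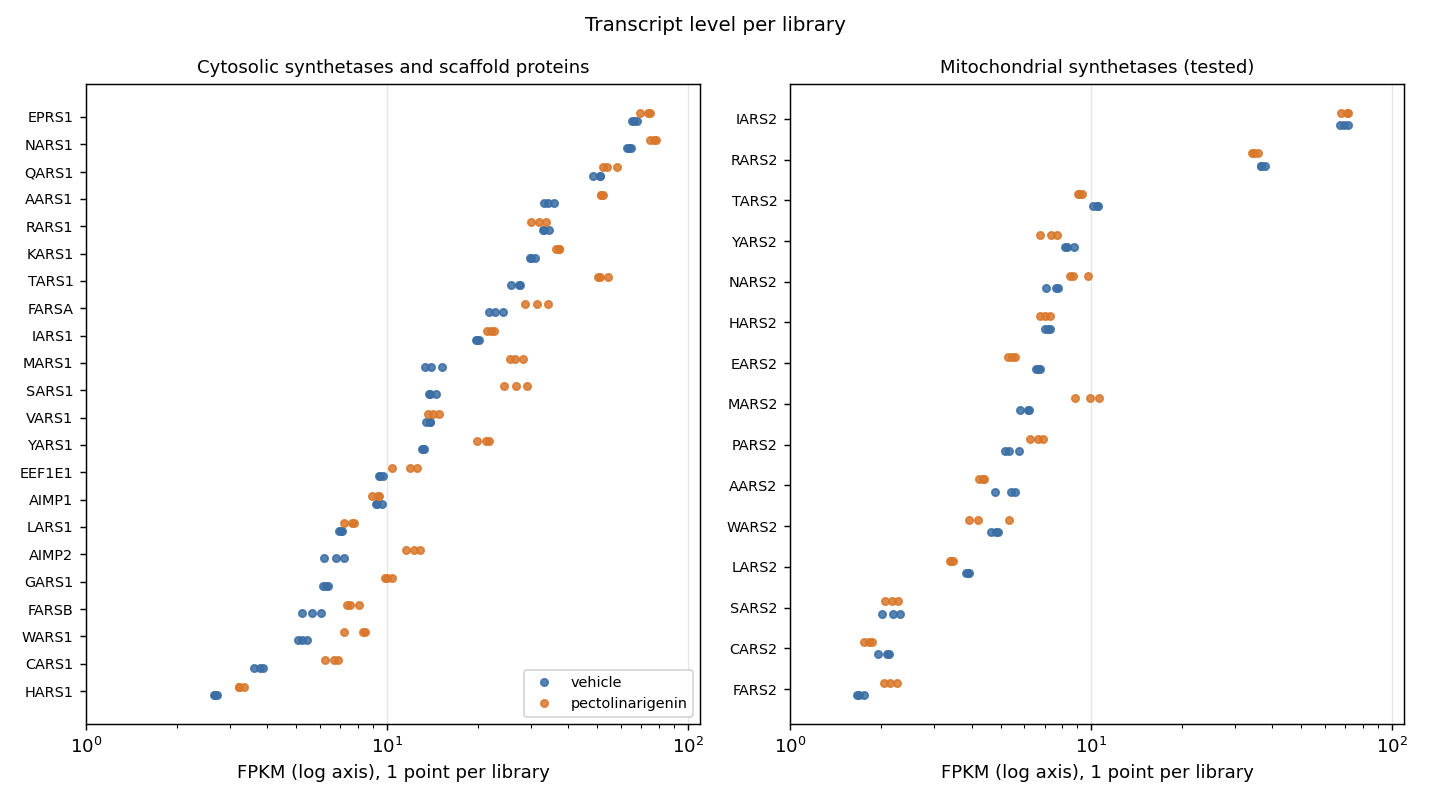
FPKM of each member in each library (horizontal log axis; 1 point per library, vehicle in blue and pectolinarigenin in orange), ordered by the control mean, with cytosolic and scaffold genes on the left and the 15 tested mitochondrial genes on the right. The treated points lie to the right of the control points in 17 of 19 cytosolic genes, where 33.5% of all genes tested lie so. EPRS1, IARS1, LARS1 and QARS1 are among these 17 and did not pass the test. In the mitochondrial panel MARS2 shows the widest step.

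The scaffold proteins of the complex did not move as a unit. AIMP2, which holds the lysyl enzyme in the complex, had 6.17, 7.21 and 6.76 FPKM in the control and 12.27, 11.55 and 12.87 FPKM in the treated libraries (log2 fold change 0.83, SE 0.0951; edgeR adjusted p = 5.42e-06). Of its exon bases 28.9% are shared with EIF2AK1 on the opposite strand, itself not passing at -0.08 (SE 0.0554). EEF1E1, also called AIMP3, had 9.72, 9.42 and 9.46 FPKM against 10.35, 11.90 and 12.57 FPKM (0.25, SE 0.0900; edgeR adjusted p = 0.0310). AIMP1, precursor of the cytokine EMAP II, had 9.64, 9.21 and 9.25 FPKM against 8.88, 9.41 and 9.32 FPKM, with overlapping groups (-0.06, 95% interval -0.17 to 0.05). The call on EEF1E1 was lost on leaving out any single library other than treated library 1 (edgeR adjusted p from 0.0617 to 0.106), whereas AIMP2 passed in 15 of 15 alternatives.

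Among the mitochondrial synthetases, MARS2 stood apart from the other 14 tested genes in the size of its rise. MARS2 (ENSG00000247626, chromosome 2, 197705369 to 197708387), which charges the tRNA for both initiator and internal methionine in mitochondria, had 6.21, 6.15 and 5.78 FPKM in the control and 10.64, 9.93 and 8.83 FPKM in the treated libraries. The log2 fold change was 0.65 (SE 0.0861, 1.57-fold; edgeR adjusted p = 2.01e-05). The other 3 that rose did so by less. FARS2, the phenylalanyl enzyme, had 1.69, 1.67 and 1.76 FPKM against 2.15, 2.26 and 2.05 FPKM (log2 fold change 0.29, edgeR adjusted p = 0.0330). PARS2, the prolyl enzyme, had 5.17, 5.76 and 5.33 FPKM against 6.93, 6.64 and 6.27 FPKM (0.25, edgeR adjusted p = 0.0413). NARS2, the asparaginyl enzyme, had 7.63, 7.07 and 7.73 FPKM against 8.47, 9.79 and 8.70 FPKM (0.23, edgeR adjusted p = 0.0301). In none of these 4 did the groups overlap.

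The 6 mitochondrial genes that fell were EARS2, AARS2, YARS2, TARS2, CARS2 and LARS2, all by 13.8% to 20.3%. EARS2, the glutamyl enzyme, had 6.64, 6.53 and 6.78 FPKM in the control and 5.58, 5.28 and 5.45 FPKM in the treated libraries (log2 fold change -0.33, SE 0.0641; edgeR adjusted p = 0.000617). AARS2, the alanyl enzyme, had 4.79, 5.43 and 5.57 FPKM against 4.38, 4.40 and 4.25 FPKM (-0.31, SE 0.0807; edgeR adjusted p = 0.00457). For both, the treated libraries were close together and below the control libraries. TARS2, the threonyl enzyme, had 10.50, 10.10 and 10.47 FPKM against 9.08, 9.35 and 9.01 FPKM (-0.22, SE 0.0644), the opposite direction to TARS1. LARS2, the leucyl enzyme, had 3.82, 3.91 and 3.90 FPKM against 3.47, 3.40 and 3.42 FPKM (-0.21, SE 0.0614). YARS2, the tyrosyl enzyme, had 8.28, 8.76 and 8.18 FPKM against 7.69, 6.77 and 7.36 FPKM (-0.25, SE 0.0905). CARS2, the cysteinyl enzyme, had 1.96, 2.13 and 2.10 FPKM against 1.76, 1.83 and 1.87 FPKM (-0.21, SE 0.0828). YARS2 and CARS2 were nearest to the threshold (edgeR adjusted p = 0.0332 and 0.0421).

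5 of the smaller mitochondrial calls were lost in many alternatives, while their log2 fold changes kept their sign on leaving out any library. CARS2 passed in 4 of 14 alternatives, FARS2 in 7 of 14, PARS2 in 7 of 15, YARS2 in 8 of 15 and NARS2 in 10 of 15. With all libraries, none of these 5 passed in DESeq2 (DESeq2 adjusted p from 0.0595 to 0.0991). Leaving out control library 2, control library 3, treated library 1 or treated library 2 ended the call on CARS2 (edgeR adjusted p from 0.0825 to 0.146). For YARS2 and NARS2 any of the control libraries, or treated library 2, did so (0.0594 to 0.128 and 0.0551 to 0.134). For FARS2 and PARS2 any single library other than treated library 3 did so (0.0573 to 0.0992 and 0.0503 to 0.125). The LARS2 call ended in limma at both pseudocounts (limma adjusted p = 0.0595 and 0.0535) and, like that on TARS2, in edgeR without an expression filter (edgeR adjusted p = 0.0545 and 0.0601). By contrast MARS2, EARS2 and AARS2 passed in every alternative in which they were tested (15, 15 and 14), as did all 13 cytosolic rises. The number of mitochondrial genes called higher was therefore 1 without control library 1, 2 or 3 or treated library 2, and 2 without treated library 1.

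Of the 5 mitochondrial genes that were tested and did not pass, IARS2, the isoleucyl enzyme, had the highest FPKM of the mitochondrial set, with 71.50, 67.25 and 69.16 FPKM in the control and 67.56, 71.51 and 70.92 FPKM in the treated libraries (95% interval of the log2 fold change -0.13 to 0.08). RARS2, the arginyl enzyme, had 36.74, 37.83 and 36.71 FPKM against 34.83, 35.75 and 34.23 FPKM. Its groups did not overlap, and its log2 fold change was -0.12 (interval -0.23 to -0.02; edgeR adjusted p = 0.0617). When only genes with a mean of at least 5 FPKM were tested, RARS2 passed as lower (log2 fold change -0.139, edgeR adjusted p = 0.0317). HARS2 (interval -0.21 to 0.08), SARS2 (-0.29 to 0.21) and WARS2 (-0.35 to 0.07) had overlapping groups. WARS2 had 4.20, 5.33 and 3.92 FPKM in the treated libraries, and without treated library 2, the highest of them, it passed as lower (edgeR adjusted p = 0.0314). SARS2 has the widest interval of these, and 57.0% of its exon bases are shared with other genes. The remaining gene, VARS2, was not tested, with 2, 4 and 5 counts in the control and 1, 10 and 5 counts in the treated libraries, while VARS1 had 1235 to 1700. Of the exon bases of VARS2 22.0% are shared with GTF2H4 on the same strand. How reads in shared exons or in copies of a locus were assigned is not given in the sources used here.

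Groups that did not overlap in FPKM were the rule for cytosolic genes. In 17 of 19 all treated values were above all control values, and in 0 of 19 below. Among the 15 tested mitochondrial genes the treated values were above in 4 and below in 7, and they overlapped in 4. Over all genes tested 33.5% were above and 25.4% below. FPKM carry no TMM factor, and without TMM factors 56.9% of the genes called by edgeR were higher.

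Summed over the 19 cytosolic genes, FPKM were 433.1, 435.7 and 434.7 in the control and 557.3, 563.6 and 568.0 in the treated libraries, a rise of 29.6%. The 16 mitochondrial genes summed to 179.4, 176.3 and 177.8 FPKM against 175.7, 181.4 and 175.9 FPKM, a change of -0.101% with overlapping groups. In FPKM, which carry no TMM factor, the cytosolic sum was thus higher in each treated library and the mitochondrial sum overlapped between groups. TMM factors were 0.9835 to 0.9905 in the control and 1.002 to 1.02 in the treated libraries. The sums were not rescaled by them, so the overlap holds for unscaled FPKM alone. A large part of the mitochondrial sum came from IARS2 and RARS2 (control means of 69.3 and 37.1 FPKM), which did not pass in the main test. The ratio of the sums was 2.41, 2.47 and 2.45 in the control and 3.17, 3.11 and 3.23 in the treated libraries. The gene length behind the deposited FPKM matched the exon bases of GENCODE 29 to within 2% for 21 of 37 members and was over 1.5 times as long for 8 (up to 4.18 times in GARS1), so FPKM of different members are compared only with this limit. With GENCODE lengths, an alternative chosen after the data were seen, the cytosolic sum was 548.1 to 553.1 against 709.7 to 718.6, the mitochondrial sum changed by -0.721%, and the ratio was 2.88 to 2.95 against 3.74 to 3.87.

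Cytosolic and mitochondrial enzymes for the same amino acid were also compared within each library, as the log2 ratio of their FPKM, which does not depend on how libraries are scaled. Of 17 pairs fixed by amino acid 16 could be formed, the valyl pair being left out for the low counts of VARS2. The ratio was higher in all treated libraries than in all control libraries in 11 pairs, lower in 1 and overlapping in 4. Among single genes tested, 33.5% had all treated FPKM above and 25.4% below the control. The share for pairs of genes at large was not computed, so the count of 11 has no background of its own. The median difference was 0.30 on the log2 scale. An exact 2-sided permutation test of 3 against 3 libraries cannot go below p = 0.1, and adjusted over the 16 pairs not below 0.133, so no pair could pass. Members recur among the pairs, since EPRS1 is set against EARS2 and PARS2 and both FARSA and FARSB against FARS2.

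**Figure D4:**
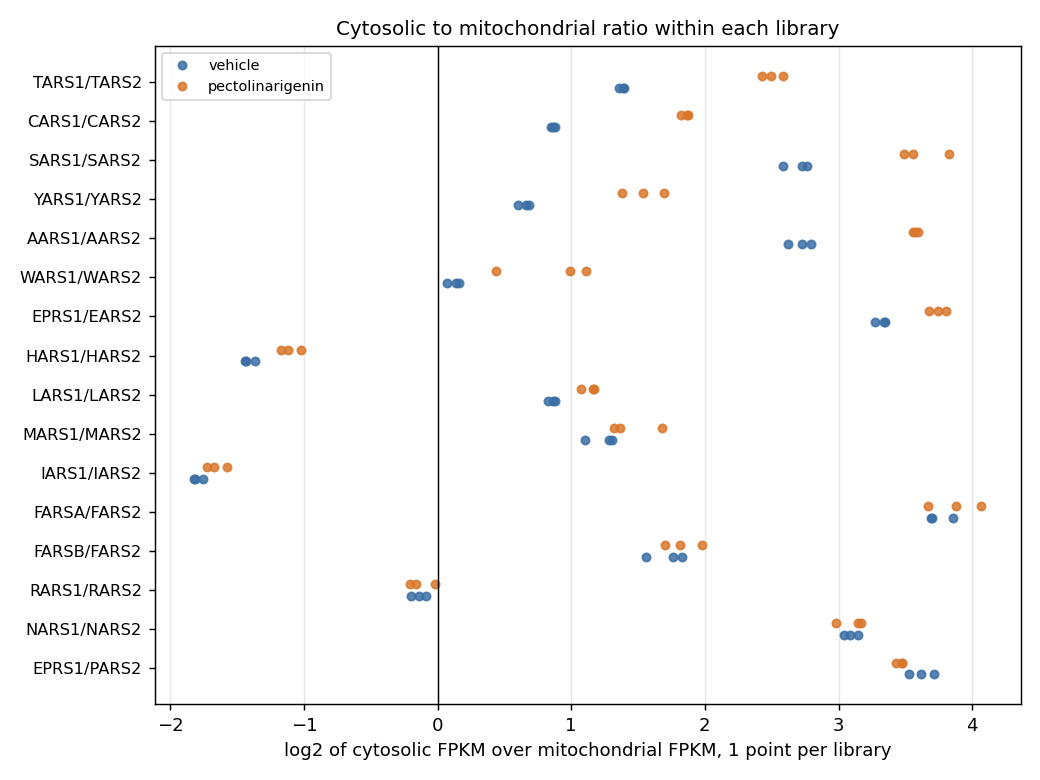
Log2 ratio of cytosolic to mitochondrial FPKM for 16 pairs of genes (horizontal axis; 1 point per library, vehicle in blue and pectolinarigenin in orange), ordered by the difference between groups. The threonyl pair has the widest step, from a mean of 1.38 to 2.50, and the ratio of EPRS1 to PARS2 is the only one with all treated points to the left.

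The threonyl pair diverged most. The ratio of TARS1 to TARS2 on the log2 scale was 1.40, 1.36 and 1.39 in the control and 2.50, 2.43 and 2.59 in the treated libraries, a difference of 1.12 (SE 0.047) or 2.18-fold. The cysteinyl pair (0.99, SE 0.019), seryl pair (0.93, SE 0.12), tyrosyl pair (0.89, SE 0.094), alanyl pair (0.86, SE 0.051) and tryptophanyl pair (0.72, SE 0.21) followed. With 1 added to the FPKM of both genes, the cysteinyl difference shrank to 0.793. The histidyl difference went from 0.31 to 0.235 and the leucyl one from 0.282 to 0.231. In the threonyl, cysteinyl, tyrosyl and alanyl pairs the cytosolic gene had risen and its mitochondrial partner had fallen. In the seryl and tryptophanyl pairs the partner did not pass. At the other end, the asparaginyl pair differed by 0.0080 (SE 0.067; exact p = 0.9), with NARS1 and NARS2 both higher. The arginyl pair differed by 0.015 (SE 0.064; exact p = 0.9). The methionyl pair, in which both genes rose strongly, differed by 0.22 (SE 0.13), with groups that did not overlap, and by 0.112 without treated library 3. The 2 ratios of EPRS1, which itself did not pass, moved in opposite directions. The ratio to EARS2, which fell, differed by 0.42 (SE 0.045), and that to PARS2, which rose, by -0.16 (SE 0.056).

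Across the 37 tested genes, which share libraries and are not independent replicates, Spearman's rho of the log2 fold change was 0.083 with the control FPKM and 0.028 with the exon length. Within the 19 cytosolic genes the values were -0.31 and 0.077, and within the 15 mitochondrial genes -0.1 and -0.36.

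Of 16 listed genes of tRNA charging and handling 14 were tested, of which 7 rose, 1 fell and 6 did not pass (median log2 fold change 0.25), where 25.3% of all genes rose and 25.3% fell. XPOT, which exports tRNA from the nucleus, rose from 33.6 to 47.4 FPKM on average (log2 fold change 0.46, SE 0.0651). PTRH2, a peptidyl-tRNA hydrolase (0.59, SE 0.0774), DTD1, which removes D-amino acids from tRNA (0.64, SE 0.131), and QRSL1, a subunit of the enzyme that makes mitochondrial glutaminyl-tRNA (0.38, SE 0.0756), rose as well. SEPSECS, which makes selenocysteinyl-tRNA from the phosphoseryl-tRNA that PSTK forms, fell (-0.30, SE 0.0579). PSTK was under the expression limit, and SARS1, which charges that tRNA with serine, rose. Without control library 1 a further gene of this list, DTD2, was called lower (edgeR adjusted p = 0.0498).

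Elongation factors were counted by compartment against the 25.3% of all genes that rose, and no test was made of a difference between compartments. Of 7 listed cytosolic factors 5 were tested and 4 rose: EEF1B2 (0.44, SE 0.0564), EEF1A1, which delivers charged tRNA to the ribosome (0.22, SE 0.0591), EEF1D (0.16, SE 0.0528) and EEFSEC, the selenocysteine factor (0.25, SE 0.0906). Leaving out control library 2 or control library 3 ended the calls on both EEF1D and EEFSEC, so that 2 factors rose. The call on EEFSEC also ended on leaving out control library 1, treated library 2 or treated library 3. EEF2, the translocation factor, did not pass (0.10, SE 0.0660), and passed as higher without treated library 3 (edgeR adjusted p = 0.00774). EEF1A2 and EEF1G were under the expression limit, EEF1G with only 5 to 15 counts per library. Of 4 mitochondrial factors (TUFM, TSFM, GFM1 and GFM2) 0 passed in either direction in edgeR, also at an unadjusted p under 0.05, with log2 fold changes from -0.10 to 0.11. Without TMM factors GFM1 passed as higher (edgeR adjusted p = 0.0412), and DESeq2 called none of the 4.

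Genes of amino acid sensing and the ATF4 pathway were listed with knowledge of earlier results from these libraries, and their direction is not independent support. Of 16 tested 10 rose, 3 fell and 3 did not pass, where 25.3% of all genes rose and 25.3% fell, so the number that fell was below the share over all genes. The rises included PPP1R15A (2.19), DDIT3 (1.83), ATF3 (2.85) and CHAC1 (2.61), each larger than any synthetase. ATF4 itself, named after its values were seen, had 88.36, 93.35 and 92.16 FPKM in the control and 143.60, 150.29 and 158.40 FPKM in the treated libraries (0.69, SE 0.0581). Those that fell were EIF2AK4, which encodes GCN2 (-0.32, SE 0.0945; edgeR adjusted p = 0.0104), and its activator GCN1 (-0.20, SE 0.0584; edgeR adjusted p = 0.00932). Neither passed in limma at either pseudocount (limma adjusted p of 0.0988 and 0.0994 for EIF2AK4 and of 0.0502 and 0.0518 for GCN1). The third gene, EIF2AK2, encodes the kinase PKR (-0.21, SE 0.0785). The groups of EIF2AK2 overlapped, and any single library other than treated library 1, when left out, ended its call (0.0788 to 0.145). EIF2AK4 did not pass without control library 1 (edgeR adjusted p = 0.0547), where GCN1 was the 1 gene called lower.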

How the data were processed

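Bulk RNA-seq of 6 libraries was analysed from a deposited table with raw counts and FPKM per gene. The deposited counts are whole numbers with no normalization, and the authors' FPKM are scaled to gene length and library depth, per the file headers. Per the submitters' processing notes, HISAT2 2.0.1, HTSeq 0.6.1, cutadapt 1.9.1 and the build GRCh38 were used. The sources used here give no strand setting, annotation release or treatment of shared reads.

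Groups and replicate numbers came from the sample titles. The counts entered edgeR 4.0.16 in R 4.3.3, by its quasi-likelihood method (TMM factors, 2-sided, Benjamini-Hochberg adjustment, threshold 0.05) in genes with a mean of at least 1 FPKM. SE were derived from the F statistic. The test was run on simulated data before use. Alternatives used DESeq2 1.42.0, limma 3.58.1, other scalings and filters, a replicate block and the omission of each library. Positions and exon overlaps came from GENCODE 29, and promoters from RefSeq. All 38 members were named, with up to 4 genes of each other list per direction by smallest p. Members and lists were chosen with earlier results of these data known. No pair of libraries in a group agreed within sampling noise (chi-square per degree of freedom 1.59 to 13.4).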

Additional observations from a re-analysis of the deposited data

How the results depend on the processing

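The 13 cytosolic rises passed in all 15 alternatives, or in the 14 that tested HARS1. Of 548 comparisons of a member with an alternative 485 kept direction and call. Calls over all genes fell to 4098 at a mean FPKM of at least 5, where 7144 genes were tested. The mitochondrial genes called higher numbered 2 without an expression filter and 1 in DESeq2. Those called lower numbered 2 without the filter and 4 in DESeq2, in limma at both pseudocounts and without TMM factors. Their median log2 fold change was -0.087 without TMM factors, -0.072 without the filter, -0.078 at 5 FPKM, and -0.084 and -0.086 in limma with pseudocounts of 1 and 0.1. In DESeq2 1 scaffold gene was higher. In limma 4 genes of the complex were higher at both pseudocounts. At 5 FPKM, where fewer genes are tested, 4 tRNA handling genes and 6 ATF4 pathway genes were higher. Without TMM factors 1 mitochondrial elongation factor was higher, and in limma 0 ATF4 pathway genes were lower at both pseudocounts. The cause of the other shifts was not tested. Genes near 0 changed sign: VARS1 was -0.001 at 5 FPKM, and IARS2 was 0.014 without TMM factors and 0.014 and 0.014 in limma.

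Without single libraries the ranges were 0 to 1 for cytosolic genes called lower (also in the complex and in class I), 1 to 4 for mitochondrial and 1 to 2 for scaffold genes called higher, 1 to 2 for tRNA handling genes lower, 2 to 4 for cytosolic elongation factors higher and 1 to 3 for ATF4 pathway genes lower. Log2 fold changes ranged from -0.016 to 0.048 (VARS1), -0.045 to 0.003 (IARS2) and -0.096 to 0.010 (SARS2). Differences of the log2 ratio ranged from -0.027 to 0.068 (NARS1 to NARS2) and -0.039 to 0.054 (RARS1 to RARS2). With a replicate block 6540 genes were called, against 6486, and among members only PARS2 changed its call (edgeR adjusted p = 0.0503). Same-numbered libraries did not deviate together (r of -0.00251, 0.0164 and 0.00181). These values gave no sign of a pairing by number, which 3 libraries per group cannot exclude. SARS2, with 103 to 143 counts per library, has the least precise value.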
